A study of Mus musculus with 7 samples.

Results

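The data describe open chromatin at the genes of the CDK inhibitors and the retinoblastoma (Rb) family in muscle stem cells (MuSCs). The 10 genes are Cdkn1a, Cdkn1b and Cdkn1c of the Cip/Kip inhibitors, Cdkn2a, Cdkn2b, Cdkn2c and Cdkn2d of the INK4 inhibitors, and Rb1, Rbl1 and Rbl2 of the Rb family, out of 21440 protein-coding genes with an annotated start on mm10. The genes are set by name, and the rule uses no value measured here. They were, however, chosen with earlier results of these data known. For each gene, every peak overlapping its RefSeq span with 10 kb added on both sides was taken from the 7 peak lists, and a promoter was called open where a peak overlapped an annotated transcription start within 1 kb.

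MuSCs are the PAX7-expressing cells of adult skeletal muscle that rest outside the cell cycle until injury. ATAC-seq maps accessible chromatin with the Tn5 transposase, which cuts and tags DNA where it is open. Each library was made from 5000 MuSCs, freshly sorted from the hindlimbs of male mice aged 5 to 6 weeks on a C57BL/6 background. Of the 7 libraries, 4 came from Nedd4L-cKO mice, in which a Cre at the Pax7 locus removes a floxed exon of Nedd4L, the gene of an E3 ubiquitin ligase (Nedd4L fl/fl Pax7 cre/+), and 3 from age- and sex-matched WT mice, whose alleles at these loci are not given in the sources used here. Pax7-Cre is active from development on, so the deletion is carried by all progeny of Pax7-expressing cells and not by MuSCs alone. Nedd4L is still transcribed in these mice but lacks its catalytic activity, and the peak lists carry no reads in which the deleted exon could be checked. The question addressed by the comparison is whether the loss of Nedd4L alters chromatin accessibility, here at genes that hold the cell cycle in G1.

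The way these proteins work is well known. D-type cyclins with CDK4 or CDK6, and cyclin E with CDK2, phosphorylate the Rb proteins, which otherwise bind E2F factors and keep S-phase genes silent. INK4 proteins block CDK4 and CDK6, and Cip/Kip proteins block a wider range of cyclin-CDK complexes. Which of them keep MuSCs out of the cycle was not tested, and an open promoter does not show that a gene is expressed.

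Depth differed between libraries. MACS2 kept between 14.4 M tags (WT replicate 3, the one library whose header names lane 2) and 20.1 M tags (Nedd4L-cKO replicate 4), and between 69302 and 79158 nuclear peaks were called, the most in Nedd4L-cKO replicate 4. Peaks that hold a narrow peak, called at the stricter q cutoff of 0.05, made up 92.5% and 92.8% in WT replicates 1 and 2. They made up 84.7% to 87.3% in the other libraries. The sorted identity was checked on promoter calls: 7 of 7 MuSC marker genes (Pax7, Myf5, Itga7, Vcam1, Calcr, Cdh15 and Cd34) had a promoter peak in all 7 libraries, and 0 of 6 genes of the cell types removed by the sort (Pecam1, Cdh5, Ptprc, Itgam, Ly6a and Pdgfra) had one in any. Over all protein-coding genes, 63.4% had a promoter peak in all libraries and 31.3% in none. Of 3 myofibre genes, Acta1 and Myh4 had a promoter peak in all 7 libraries whereas Ckm had one in 3 Nedd4L-cKO and 2 WT libraries, and what part fibre chromatin has in the values below was not tested. In sorted populations such as these, fewer cells with an open site and less opening per cell cannot be told apart.

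The promoter sequences of 5 starts are shown because they frame the main contrasts among these genes. Cdkn1a has the only start without a peak, next to the strongest one of the same gene. Cdkn2a has a pair of starts that make separate proteins. Rbl1 held an E2F-type site, whereas Rbl2, the other Rb family promoter with a sequence, did not. No promoter sequence of Cdkn1c or Rb1 was at hand, so these were not searched. Each line gives the 250 bases before the start on the strand of the gene, from RefSeq on GRCm38.p6, the assembly of mm10. Capitals mark matches on either strand to the GC box (GGGCGG), the E-box CAGCTG, the CCAAT box or the CHR element TTTGAA. They also mark the E2F-type letters TTTCGCGC, TTTCCCGC, TTTGGCGC or TTTGCCGC, and a p53 element. The p53 element is a pair of half-sites RRRCWWGYYY of 10 bases, shown with the 0 to 13 bases between them. R is A or G, W is A or T, and Y is C or T. Every letter must match, so the 10 bases right after the marked stretch of Cdkn1a, which miss the first letter, are not marked.
Cdkn1a outer start: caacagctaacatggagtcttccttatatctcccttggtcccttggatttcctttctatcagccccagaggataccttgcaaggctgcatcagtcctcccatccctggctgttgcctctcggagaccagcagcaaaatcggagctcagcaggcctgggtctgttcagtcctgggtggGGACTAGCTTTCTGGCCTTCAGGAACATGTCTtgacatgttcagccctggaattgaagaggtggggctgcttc
Cdkn1a inner start: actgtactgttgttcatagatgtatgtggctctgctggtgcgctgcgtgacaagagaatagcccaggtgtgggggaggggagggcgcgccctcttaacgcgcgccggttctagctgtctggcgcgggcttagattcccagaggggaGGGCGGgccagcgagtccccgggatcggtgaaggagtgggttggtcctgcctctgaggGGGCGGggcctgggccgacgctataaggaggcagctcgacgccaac
Cdkn2a p16 start: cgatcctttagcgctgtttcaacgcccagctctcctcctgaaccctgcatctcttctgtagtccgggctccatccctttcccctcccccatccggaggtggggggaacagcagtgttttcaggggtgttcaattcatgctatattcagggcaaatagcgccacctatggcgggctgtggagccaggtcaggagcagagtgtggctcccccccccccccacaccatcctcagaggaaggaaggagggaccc
Cdkn2a Arf start: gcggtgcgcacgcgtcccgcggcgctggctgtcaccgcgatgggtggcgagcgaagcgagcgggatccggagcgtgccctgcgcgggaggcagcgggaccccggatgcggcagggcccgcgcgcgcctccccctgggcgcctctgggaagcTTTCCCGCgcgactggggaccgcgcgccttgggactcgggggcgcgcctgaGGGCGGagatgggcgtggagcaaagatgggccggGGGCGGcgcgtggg
Rbl1 start: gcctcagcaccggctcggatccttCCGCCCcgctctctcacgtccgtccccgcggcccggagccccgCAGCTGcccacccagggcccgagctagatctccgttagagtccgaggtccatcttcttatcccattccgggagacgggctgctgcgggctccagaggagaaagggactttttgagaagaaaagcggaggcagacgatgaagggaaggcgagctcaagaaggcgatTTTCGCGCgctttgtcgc

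These windows lie at chr17:29090729-29090978 and chr17:29093519-29093768 on the plus strand for Cdkn1a, at chr4:89282193-89282442 (p16) and chr4:89294620-89294869 (Arf) on the minus strand for Cdkn2a, and at chr2:157204535-157204784 on the minus strand for Rbl1. No peak touched the window of the outer Cdkn1a start, whereas peaks covered 168 to 250 of the 250 bases at its inner start and all 250 bases of the other 3 windows in every library. The outer Cdkn1a window held 2 CpG dinucleotides and the inner one 19, against a median of 10 over the 21255 windows of 17486 protein-coding genes. In Cdkn2a the Arf window held 40 CpG and the p16 window 7. The p53 element matched in the outer Cdkn1a window alone among the 11 windows of 8 member genes in the table (Cdkn1b, Cdkn2b, Cdkn2c, Cdkn2d and Rbl2 being the others), and in 0.0470% of all windows. E2F-type letters were found in the Arf and Rbl1 windows, 2 of 11, and in 2.35% of all windows. GC boxes were present in 6 of 11 windows and in 42.6% of all, CCAAT in 2 of 11 and in 35.4%, the CHR letters in 2 of 11 and in 14.5%, and the E-box in 1 of 11 and in 12.1%. No match of one motif overlapped that of another in these windows. A match describes letters and does not show that a factor binds.

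All 10 genes had a promoter peak in all 7 libraries, in a background in which 63.4% of protein-coding genes did (13594 of 21440). Over the 14 annotated starts of the 10 genes, 13 were covered by a peak in every library and 1, the outer start of Cdkn1a, in none. The strength of the peaks was read in a pair of ways. Pileup is the coverage by extended tags averaged over the length of a peak, and fold enrichment is the ratio of that coverage to the local background of the same library. A broad open promoter can raise that background itself, so a low fold alone does not show weak opening. Pileup and fold come from separate runs for each library, so that each value was turned into a percentile among all nuclear peaks of its library, from 0 for the weakest to 100 for the strongest. By pileup the median of the 10 genes was at the 92.3rd percentile, against 86.8 for all genes with a promoter peak in all libraries, and 7 of 10 genes lay above that median gene. By fold the order turned: the median of the 10 genes was 65.1 against 79.6, and 4 of 10 lay above the median gene.

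Among the Cip/Kip inhibitors, Cdkn1a (p21, an inhibitor induced by p53) had 1 of the strongest promoter peaks by coverage. At its inner start the pileup percentile was 99.6, 99.9, 99.7 and 99.8 in Nedd4L-cKO replicates 1 to 4 and 99.9, 99.7 and 99.6 in WT replicates 1 to 3. Genotypes overlapped, and the means were 99.7 ± 0.14 (Nedd4L-cKO, SD, n = 4) and 99.7 ± 0.12 (WT, SD, n = 3). The peak was long, 2123 to 2317 bp against a median of 1316 bp over all genes with a promoter peak in all libraries, and reached only 168 to 291 bp upstream of the start but 1932 to 2106 bp downstream. By fold it ranked low, at the 28.5th to 40.96th percentile, with ratios of 3.14 to 3.41.

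Cdkn1b (p27, the inhibitor most tied to quiescence) had promoter pileup percentiles of 97.7, 98.7, 98.4 and 97.3 in Nedd4L-cKO and of 96.8, 97.6 and 97.1 in WT. The lowest Nedd4L-cKO library lay between the WT libraries, so the genotypes overlapped. Fold percentiles were 61.0, 64.5, 69.6 and 57.6 in Nedd4L-cKO and 48.5, 53.9 and 63.0 in WT, again with overlap. Cdkn1c (p57, an imprinted inhibitor expressed from the maternal allele) had the weakest promoter of the 3 by both measures. Its pileup percentiles were 69.1, 73.5, 73.9 and 75.8 in Nedd4L-cKO and 76.6, 70.5 and 71.7 in WT, and the highest value was WT. By fold the Cdkn1c peak ranked from the 10.5th to the 25.3rd percentile, with −log10 q values of 4.61 to 5.86. Like that of Cdkn1a, its peak extended far into the gene, to 1831 to 1943 bp downstream of the start.

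Among the INK4 genes, Cdkn2a uses separate first exons for p16 and for Arf, a protein from another reading frame that stabilises p53, and both starts were open in every library. At the Arf start the pileup percentile was 81.7, 84.3, 87.5 and 83.3 in Nedd4L-cKO and 87.7, 89.8 and 87.4 in WT. Only Nedd4L-cKO replicate 3 reached the lowest WT value. At the p16 start the percentiles were lower in each of the 7 libraries, 65.3, 69.7, 66.5 and 67.7 in Nedd4L-cKO and 72.5, 64.7 and 59.1 in WT, and the WT libraries lay on both sides of the Nedd4L-cKO range. By fold the p16 start ranged from the 61.0th to the 87.7th percentile and the Arf start from the 78.1st to the 88.0th. The Arf peak also covers the start of Gm12610, a non-coding gene on the other strand, so its signal cannot be assigned to Arf alone.

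Cdkn2b (p15), next to Cdkn2a on chromosome 4, showed the opposite balance to Cdkn1a. Its pileup percentiles were moderate, 88.9, 86.0, 82.6 and 87.6 in Nedd4L-cKO and 87.7, 82.7 and 86.0 in WT, while its fold percentiles were the highest of the 10 genes by median, 90.3 to 97.7, with ratios of 5.27 to 6.58. The genotypes overlapped by both measures. Cdkn2c (p18) had pileup percentiles of 93.1 to 95.2 and fold percentiles of 44.9 to 53.3, with one peak of 2097 to 2157 bp over both of its annotated starts. Cdkn2d (p19INK4d) was as strong as Cdkn1a by coverage, at the 99.5th to 99.8th percentile in all 7 libraries, from a short peak of 986 to 1049 bp. Its fold percentiles ran from 40.8 to 54.2.

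Of the Rb family genes, Rbl1 ranked lowest by pileup and Rb1 lowest by fold. Rb1 had pileup percentiles of 92.2, 92.8, 91.0 and 90.7 in Nedd4L-cKO and 90.9, 90.1 and 94.96 in WT, where both the lowest and the highest value were WT. Rbl1 (p107, an Rb family protein made mainly in cycling cells) had percentiles of 79.9, 84.1, 77.1 and 79.7 in Nedd4L-cKO and 81.8, 81.2 and 81.0 in WT, so that the WT values sat inside the Nedd4L-cKO range. Rbl2 (p130, the family member that prevails in quiescent cells) had percentiles of 92.3, 91.9, 93.6 and 95.04 in Nedd4L-cKO and 93.7, 93.9 and 92.4 in WT. By fold, Rbl1 ranged from 87.0 to 93.5, Rbl2 from 83.9 to 90.5 and Rb1 from 60.5 to 80.5.

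**Figure D1:**
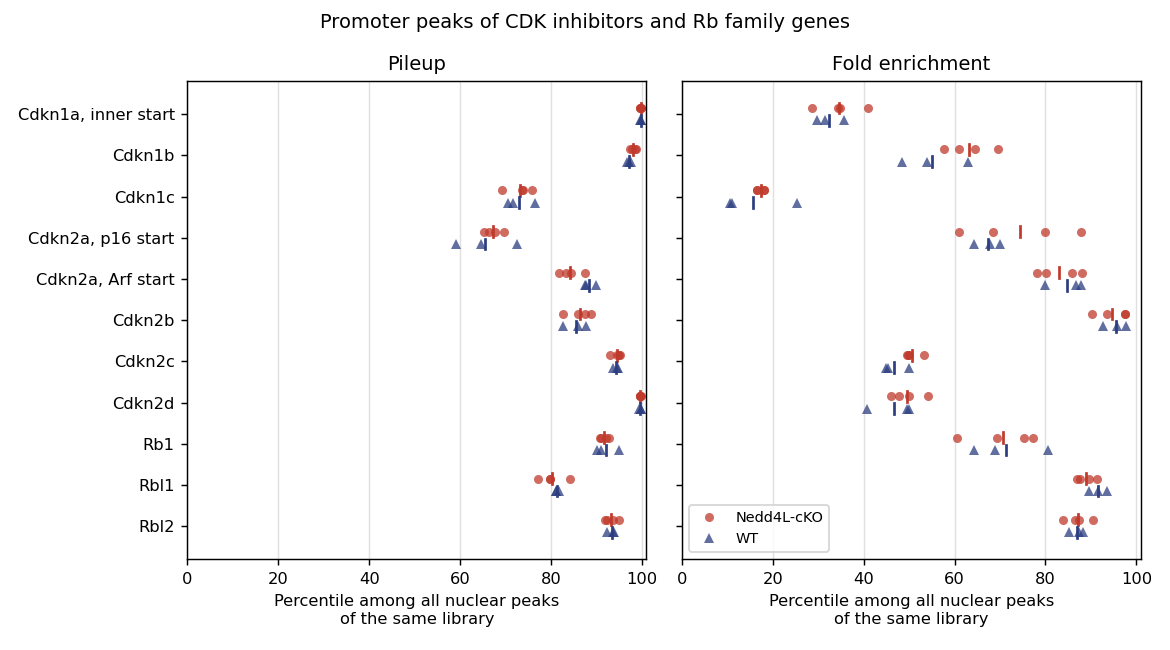
Percentile of the promoter peak among all nuclear peaks of its library, by pileup (left) and by fold enrichment (right), for 11 promoter peaks of the 10 genes. Each circle is a Nedd4L-cKO library (n = 4), each triangle a WT library (n = 3) and each vertical tick a group mean. Cdkn1a and Cdkn2d sit at the top by pileup but below the middle or near it by fold, and the genotypes overlap in each row of both panels.

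In the order of pileup, the ranges over libraries of Cdkn1a and Cdkn2d overlapped at the top and were separate from that of Cdkn1b. The ranges of Cdkn2c, Rbl2 and Rb1 overlapped each other below, as did those of the Arf start and Cdkn2b, which the range of Rbl1 also reached. Cdkn1c and the p16 start overlapped at the bottom. For each gene, the protein-coding gene with the closest profile was the one with the smallest root mean square difference of promoter pileup percentile over the 7 libraries. It was Apba1 for Cdkn1b (0.313 percentile points), Nkiras2 for Cdkn2c (0.407), Tspan17 for Rbl2 (0.473) and Alg6 for Rb1 (0.511). Cdkn2d was closest to Hsp90b1 and Ttc41, which share a peak (0.0698), Cdkn1a to Ankhd1 (0.0809), Rbl1 to Oscar and Ndufa3 (0.772), Cdkn2b to Nrbf2 (0.877), Cdkn1c to Slc16a10 (1.14) and Cdkn2a, with its stronger start in each library, to Pfdn6 and Wdr46 (1.42).

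Beyond the promoters, overlapping peaks of all libraries were merged into regions. The 10 loci held 35 regions. A peak was present in all 7 libraries in 20 of them (57.1%), close to the 56.0% of all 95163 regions. A further 9 were called in 2 to 6 libraries and 6 in a single library. All 11 promoter regions were called in all libraries, against 9 of the 24 regions elsewhere. Of these 9, 7 lay at the start of a neighbouring gene: Lockd downstream of Cdkn1b, Gm33663 upstream of Cdkn1c, 9630013D21Rik and Faf1 on either side of Cdkn2c, Kri1 at the end of Cdkn2d, Lpar6 inside Rb1, and Aktip downstream of Rbl2. The other 2 lay at no annotated start. One, chr17:29100592-29101267, covered the end of Cdkn1a with pileup percentiles of 43.3 to 62.6, and the other, chr14:73313059-73314334, lay 11617 bp into Rb1 with percentiles of 45.9 to 69.6. Annotated exons on mm10 were not used here, so exonic and intronic positions are not given.

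Regions called in only some libraries had −log10 q values of at most 5.42. By pileup their medians ranged from the 7.37th to the 73.4th percentile, the highest being a region downstream of Cdkn1b with values of 68.4 to 77.1 in 6 libraries. They were about as many in each library: 6, 6, 5 and 7 peaks in Nedd4L-cKO and 6, 6 and 7 in WT. The span of Rb1, the longest of the 10 at 133094 bp, held 5 of these 15 regions, and the loci of Cdkn1a, Cdkn2c and Cdkn2d none. Only the windows of Cdkn2a and Cdkn2b, whose gene spans lie 11669 bp apart, overlapped, and they shared one region, chr4:89303419-89304212, with a peak in 3 of the Nedd4L-cKO and 2 of the WT libraries. A region upstream of Rbl2, chr8:91060593-91061039, had a peak in 2 of the Nedd4L-cKO and 0 of the WT libraries. None of the 35 regions was called in all Nedd4L-cKO and no WT libraries (0.0694% of all regions) and none in all WT and no Nedd4L-cKO libraries (0.0820%).

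**Figure D2:**
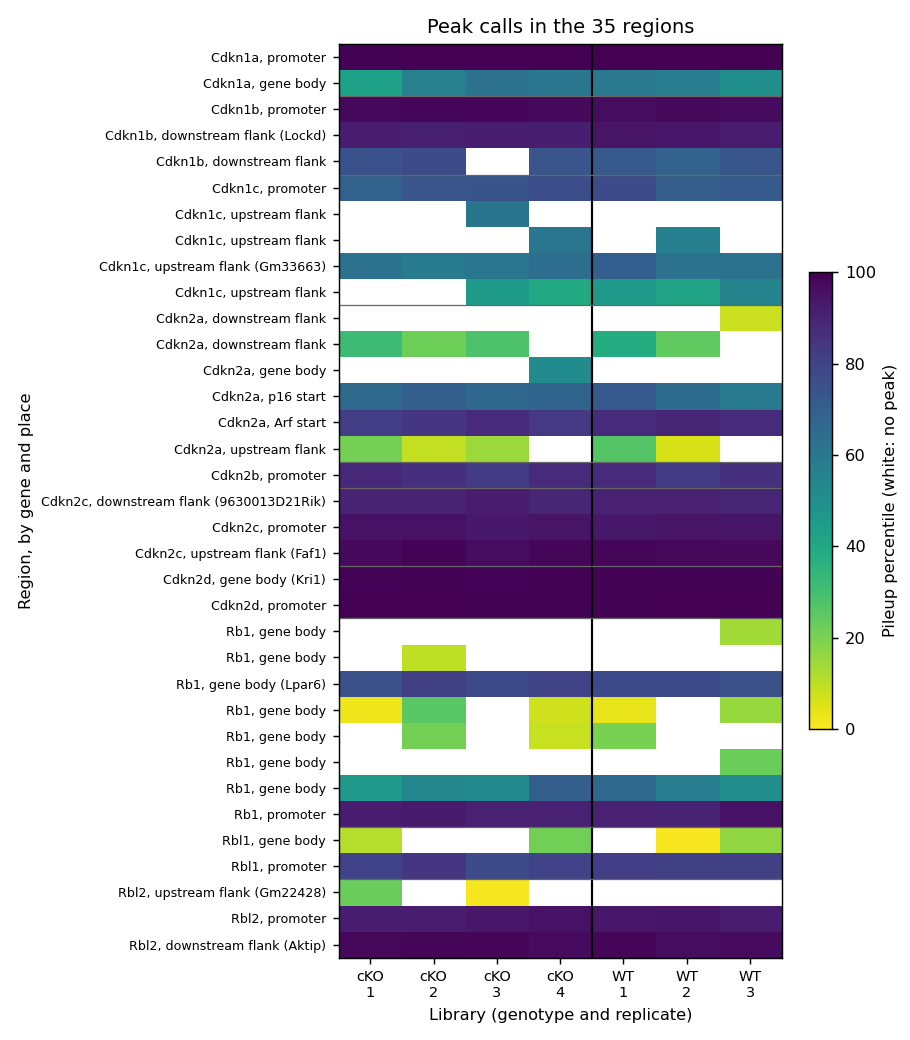
Peak calls in the 35 regions at the 10 loci (rows, with the gene whose start a region covers in brackets) in the 7 libraries (columns), coloured by pileup percentile from 0 to 100 and white where no peak was called. The 11 promoter rows are filled across all libraries, and white cells are spread over both genotypes.

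The genotypes were compared in the 20 regions called in every library. Ranks were turned into normal scores within each library, in units of 1 SD of the ranks, and limma was fitted over all 53245 regions called in all libraries with Benjamini-Hochberg adjustment over all of them. By fold, 0 of the 20 regions passed an adjusted p of 0.05 (0% of all regions) and 0 an unadjusted p of 0.05 (3.98% of all). By pileup, 0 passed an adjusted p of 0.05 (0% of all regions) and 0 an unadjusted p of 0.05 (2.71% of all). The latter count became 1, the Arf start, with the trend and robust options of limma and without Nedd4L-cKO replicate 3. Differences were balanced, with 11 regions higher and 9 lower in Nedd4L-cKO by fold, and 10 and 10 by pileup. Their medians were 0.02 by fold and −0.0033 by pileup, beside 0.01 and −0.0013 over all regions.

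The largest pileup difference in the 20 regions was at the Arf start, where the normal score was 0.20 lower in Nedd4L-cKO (SE 0.10, 95% interval −0.45 to 0.04, limma adjusted p = 0.999999), from mean percentiles of 84.2 ± 2.46 (SD, n = 4) and 88.3 ± 1.34 (SD, n = 3). Without Nedd4L-cKO replicate 3 the difference was −0.26 (limma adjusted p = 0.999933). In the other direction it was at the Cdkn1b promoter, 0.17 higher (SE 0.11, 95% interval −0.09 to 0.43, limma adjusted p = 0.999999), from 98.0 ± 0.64 and 97.2 ± 0.41. By fold the extremes lay at neighbouring genes. At the Lockd start downstream of Cdkn1b the fold percentiles were 33.4, 23.5, 32.2 and 23.2 in Nedd4L-cKO and 36.9, 34.5 and 38.6 in WT, with no overlap, for a difference of −0.27 (SE 0.18, 95% interval −0.68 to 0.13, limma adjusted p = 0.999973). At the Lpar6 start inside Rb1 they were 65.4, 85.8, 80.8 and 80.0 in Nedd4L-cKO and 73.5, 69.9 and 66.3 in WT, for a difference of 0.30 (SE 0.21, 95% interval −0.17 to 0.77, limma adjusted p = 0.999973), and the genotypes overlapped. Without Nedd4L-cKO replicate 2 the Lpar6 difference was 0.19.

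Ranks by fold did not overlap between genotypes in 2 of the 20 regions, in a background of 4.76%. These were the Lockd start and the Kri1 start at the end of Cdkn2d, where fold percentiles were 33.8, 40.9, 34.8 and 41.2 in Nedd4L-cKO and 33.2, 32.7 and 30.9 in WT and the difference was 0.13 (SE 0.16). By pileup 0 of 20 did not overlap (3.60% of all regions). No promoter of the 10 genes was free of overlap by either measure. Over the 11 promoters the 95% intervals of the difference reached from −0.45 to 0.43 by pileup and from −0.58 to 0.84 by fold, as the outermost ends over all of them.

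**Figure D3:**
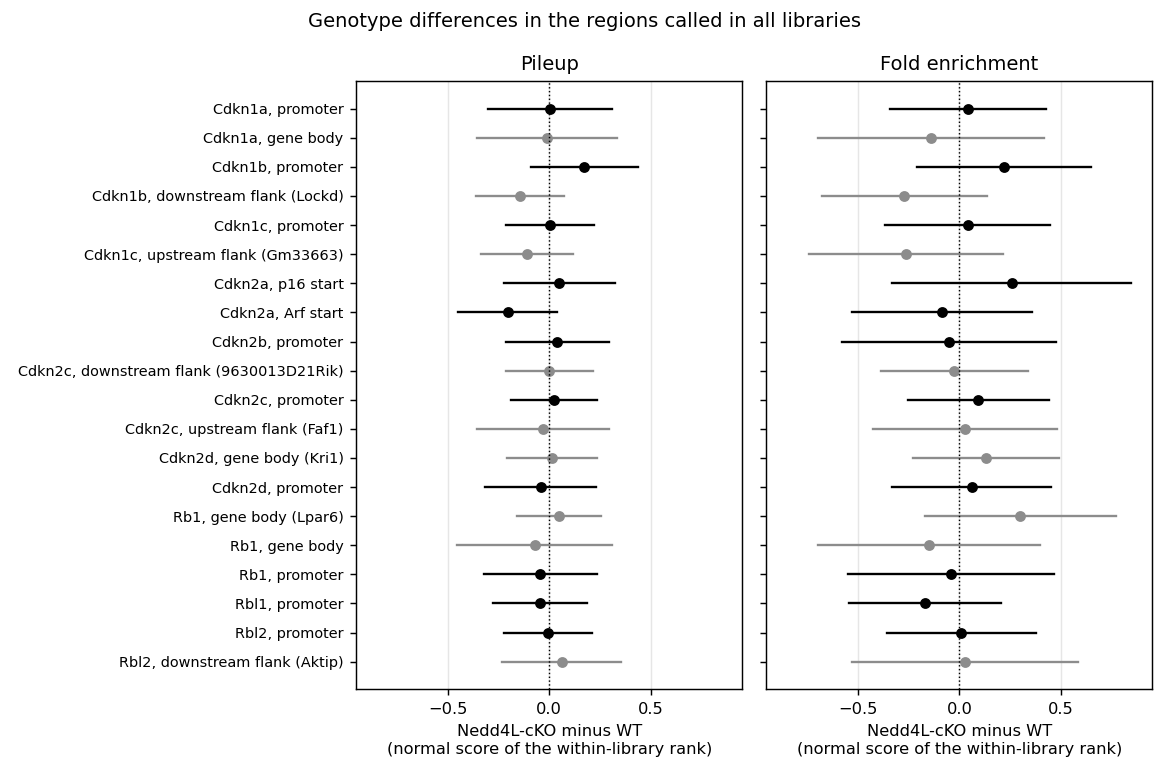
Difference of Nedd4L-cKO minus WT in normal scores of within-library ranks, by pileup (left) and fold enrichment (right), in the 20 regions called in all libraries. Points are limma estimates and bars their 95% intervals (black, promoters of the 10 genes; grey, other regions, with the gene whose start they cover in brackets), and each interval includes 0.

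As a value per locus, the bases covered by peaks within each gene and its flanks were ranked over 16413 protein-coding genes. With limma, 0 of 10 loci passed an adjusted p of 0.05 (0% of all genes), 0 an unadjusted p of 0.05 (3.75%), and in 0 of 10 the ranks of the genotypes did not overlap (4.51%). The count at an unadjusted p became 1, the Cdkn2b locus, without Nedd4L-cKO replicate 4. A replicate block gave the same, since that library is alone in its block and drops out of the difference. Cdkn2b had 1634, 1678, 2036 and 1114 bp under peaks in Nedd4L-cKO and 1427, 1363 and 1140 bp in WT, the lowest value being that of Nedd4L-cKO replicate 4. Its rank difference was 0.24 (SE 0.26, limma adjusted p = 0.999556), and 0.49 without that library (SE 0.11, limma adjusted p = 0.873218). With the gene span alone the Cdkn2b difference was 0.11 (SE 0.13). The lowest libraries, Nedd4L-cKO replicate 4 and WT replicate 3, had no peak in chr4:89303419-89304212, the flank region shared with the Cdkn2a window. Their covered length at Cdkn2b was that of the promoter peak alone. Rbl1 had the lowest p among loci with less coverage in Nedd4L-cKO. Its covered length was 1498, 1424, 1454 and 1413 bp in Nedd4L-cKO and 1504, 1624 and 1635 bp in WT, all WT values being higher in bp, and the rank difference was −0.14 (SE 0.10, limma adjusted p = 0.999556). It was −0.08 without Nedd4L-cKO replicate 4 and −0.04 with the gene span alone. Among loci with more coverage it was Cdkn2a, with 3414, 4137, 4189 and 3723 bp in Nedd4L-cKO and 3806, 3963 and 2753 bp in WT. The difference there was 0.16 (SE 0.15, limma adjusted p = 0.999556) and fell to 0.02 without WT replicate 3.

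The other genes of the pathway were read in the same way. Of 27 genes for cyclins, kinases, E2F and DP factors, MuvB subunits and the machinery that degrades p27, 25 had a promoter peak in all 7 libraries, against 63.4% of all protein-coding genes. The exceptions were both D-type cyclins, which start the phosphorylation of Rb: Ccnd1 had a promoter peak in no library, and Ccnd2 had one in 2 Nedd4L-cKO libraries and 1 WT library, at pileup percentiles of 43.1 to 53.3. Ccnd3, the third D-type cyclin, was open in all libraries at 91.8 to 96.2. A missing peak does not show a closed promoter, because peaks are called against the local background. The median fold percentile was 1.41 at Ccnd2 where called, and 7.42 over the 7 MuSC marker genes, which had a promoter peak in all libraries. Whether a raised local background hid Ccnd1 or Ccnd2 was not tested. All 10 E2F and DP genes, all 6 MuvB and partner genes, and both Skp2 and Cks1b were open in all libraries, with median pileup percentiles of 90.3, 92.3 and 97.4. At these promoters 0 genes passed an adjusted p of 0.05 by either measure with limma, and 0 were at an unadjusted p under 0.05, beside 3.98% of all regions by fold and 2.71% by pileup. The lowest p was by fold at Cdk6, the kinase partner of the D-type cyclins, with a difference of 0.49, a limma adjusted p of 0.999973 and mean fold percentiles of 24.0 ± 13.9 (Nedd4L-cKO, SD, n = 4) and 9.65 ± 1.84 (WT, SD, n = 3).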

How the data were processed

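The authors prepared ATAC-seq libraries of MuSCs from 4 Nedd4L-cKO and 3 WT mice, grouped by the genotype in their labels. The methods state trimming (Trimmomatic 0.39), alignment to mm10 (BWA-MEM 0.7.17), a filter on mapping quality and removal of duplicates (Picard 2.26.3). Per the file headers, peaks were called for each library on its own with MACS2 2.2.7.1 in broad mode, without a control, with a tag shift of -100 bp, an extension of 200 bp and q cutoffs of 0.1 for broad and 0.05 for narrow peaks. The deposited pileup is a signal (average coverage by extended tags, without scaling for depth). Fold enrichment, as deposited, is the ratio to the background of the same library, and p and q values are deposited as −log10. The peaks rest on tag ends kept once per position, and depth enters the calls, so that a site without a peak may lie below the threshold of that library.

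Peaks on 19 autosomes, X and Y were used, 1-based. Gene spans and starts came from RefSeq on GRCm38.p6, the start of Cdkn1c and Rb1 being the outer end of their span with strand from GENCODE. Regions merged peaks that shared at least 1 bp. Each region took the highest value of a library, ranks were turned into normal scores, and limma 3.58.1 in R 4.3.3 (lmFit, eBayes, Benjamini-Hochberg over all regions or genes) compared the genotypes with no covariate. The fit was run on simulated scores with known shifts much larger than the differences given here, so that run does not show what differences of these sizes would give. Computation used Python 3.11.15, pandas 2.3.3, numpy 2.4.6, scipy 1.17.1 and matplotlib 3.10.9. The genes named are the 10 members, pathway genes by counts with those lacking a peak in some library and the lowest p, the regions with the lowest p in each direction, and the closest gene of each member. Beside these, regions and loci without overlap of the genotypes, the loci with the lowest p, and the Cdkn2b locus were named after their values were seen. The members and the gene lists were chosen with earlier results of these data known. Libraries are separate samples in the labels, and p-values measure the spread between them. No 2 libraries shared a peak with identical ends and pileup (0 in any pair). Alternatives were a −log10 q of at least 5, other peak lists, windows, flanks, overlaps and rankings, a replicate block, a depth covariate, trend and robust options, and leaving out each library.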

Additional observations from a re-analysis of the deposited data

Results flagged for a closer look

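Among 67 sets of 4 Nedd4L-cKO values at these loci that were screened for one library far from the others (Dixon's ratio against its 95% critical value of 0.829), 3 stood out, all for Nedd4L-cKO replicate 4, the most deeply sequenced library. Chance alone picks about 1 in 20 such sets. The promoter peak of Cdkn2c was at the 53.3rd percentile by fold in that library, against 49.5 to 50.02 in the other 3 (ratio 0.871), and counts for 2 of the 3 because the same peak covers both annotated starts. The Rb1 locus had 7401 bp under peaks in that library, against 4666 to 5014 bp in the other 3 (ratio 0.873), and the WT libraries held 5144 to 6028 bp.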

How the results depend on the processing

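All 10 genes kept a promoter peak in every library under 4 of 6 other definitions. Among these 4, a start window of 2.5 kb can only add calls. Leaving out each library in turn also gave 10. That was fixed in advance, since a gene called in all 7 libraries is called in any subset of them. The count was 9 with a −log10 q of at least 5, where Cdkn1c was called in 4 of 7 libraries, and 9 with the outermost start alone, where Cdkn1a was called in 0. With ranks among promoter peaks in place of all peaks, the median member percentile was 73.3 by pileup and 40.1 by fold. In the same summary it was 92.4 and 65.3 among all peaks, computed otherwise than the 92.3 and 65.1 given above. No value for all genes is given on the scale of promoter peaks. With flanks of 25 kb the count of regions called in all libraries was 33 of 54. None of the member regions separated the genotypes with a −log10 q of at least 5, with a stricter overlap for merging peaks or without each library in turn, and limma called 0 member regions or loci in every alternative. With the span alone as the locus it called 2 loci over all genes, and 0 of these genes. Correlations of same-numbered libraries were −0.123, 0.0330 and −0.122, within the range of −0.151 to 0.154 for libraries with different numbers. These values do not settle whether equal numbers mark pairs. With a replicate block 0 regions and 0 loci were called (2138 regions by fold, 1454 by pileup and 725 loci over all genes at an unadjusted p of 0.05). At that threshold the block gave 1 member locus, Cdkn2b (difference 0.49 in place of 0.24). No WT library is numbered 4, so Nedd4L-cKO replicate 4 is alone in its block and drops out of the genotype difference. The block value is therefore in effect the 0.49 found without that library, and not a separate result. The Arf start was the 1 member region by pileup with trend and robust options (−0.20) and without Nedd4L-cKO replicate 3 (−0.26). The differences named at member regions and loci kept their sign under the alternatives run for them, and that at Kri1 was 0.07 with a −log10 q of at least 5. No alternative was run for Cdk6. Of the 20 regions, 5 by fold and 5 by pileup changed sign under another setting and 11 and 14 without one library, all from differences below 0.14 in size. Depth ranged from 14.4 to 20.1 M tags, and its part in calls near the threshold was not tested. With the depth covariate, 3049 regions by fold and 2533 by pileup were at an unadjusted p of 0.05 in limma, against 2120 and 1445 without it. These were the highest such counts of any alternative for regions, and 0 of the 20 member regions were among them.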
